A study of Mus musculus with 99 samples.

Results

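The genes described here are 38 germline and meiosis genes, taken from a list of genes known as targets of the PCGF6 complex, and this list was drawn up with earlier results of these libraries known. They are 38 of the 55341 gene names that were counted. The list holds 6 germ cell RNA-binding proteins and regulators, 12 genes of the piRNA pathway, 8 of the synaptonemal complex and chromosome axis, 3 meiotic cohesin subunits, 6 genes of meiotic recombination and 3 other testis proteins. Their RNA was followed in 16 RNA-seq libraries, and the peaks near their start sites in 70 ChIP-seq peak lists of 12 antibodies and 4 lists of inputs.

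The cells were mouse embryonic stem cells (ESCs), grown in serum medium with LIF and inhibitors of GSK3β and MEK. The Parental line was RING1A−/−, RING1B fl/fl and ROSA26::creERT2, so that all of its samples lacked RING1A and 4-hydroxytamoxifen (OHT) activated a Cre recombinase that deletes RING1B. Derivatives of it stably expressed tagged RING1B WT or RING1B I53S, a catalytic mutant, from a transgene under the CAG promoter. The Eed fl/fl line carried the same Cre and loses EED, a core subunit of PRC2, with OHT. Each of these 4 lines had 2 RNA-seq libraries with 0.5 µM OHT and 2 with ethanol as vehicle (−OHT). The sample descriptions give 72 h of treatment. Some MTF2 and JARID2 ChIP-seq libraries carry 48 h in their titles and were read as 48 h of OHT. Mtf2 was also knocked out in the Parental line and in both transgene lines. Those knockout cells gave ChIP-seq libraries of H3K27me3, SUZ12 and inputs only. Each condition had 1 ChIP-seq library per antibody, apart from MTF2 and JARID2 after 72 h in the RING1B WT and I53S lines with 2, so differences between peak lists have no replicate check. Nothing in the labels says that replicates were separate cultures, so p-values measure the spread between these libraries, which may be technical.

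Total counts per RNA library ran from 6957248 to 12743460, with a median of 9749125.5. Rnf2, which encodes RING1B, was lower by 0.55 ± 0.20 (log2, SE) in Parental cells with OHT, but whole-gene counts do not measure the deletion of floxed exons. In the RING1B WT and I53S lines, the counts of the transgene also fall on this gene name. Eed had 255 and 173 CPM (counts of a gene scaled to the effective library size, the total after TMM scaling) without OHT and 67.1 and 43.7 with it in Eed fl/fl cells, a difference that did not pass the threshold (adjusted p = 0.0766, edgeR). The 8 ESC markers were present in every library, and their summed level was 3729 and 4240 CPM without OHT and 1829 and 1912 with it in Parental cells. In the same libraries the summed level of 5 primitive endoderm markers was 39.4 to 42.2 CPM, against 2.61 to 2.97 without OHT, that of 5 fibroblast feeder markers was 45.7 to 48.4 against 11.9 to 14, and that of 5 two-cell-like markers was 7.99 to 12.4 against 0.815 to 1.24. In RING1B I53S cells with OHT the ESC markers summed to 2171 and 2282 CPM, the primitive endoderm markers to 31.0 and 31.8, the feeder markers to 39.7 and 49.9, and the two-cell-like markers to 0.401 and 0.775. The part of these shifts in the results below was not tested. In bulk libraries, more cells with a transcript and more transcript per cell cannot be told apart. The 5 late spermatid markers, among them the protamines Prm1 and Prm2, stayed at or below a sum of 2.51 CPM in the 12 libraries of the RING1B lines, and between 6.91 and 11.5 CPM in the 4 Eed fl/fl libraries.

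Polycomb repressive complex 1 (PRC1) attaches ubiquitin to a lysine of histone H2A (the mark H2AK119ub1) through RING1A or RING1B, and PRC2 methylates a lysine of histone H3 (the mark H3K27me3). PRC1 forms differ in their PCGF subunit. The form with PCGF6, called PRC1.6, also holds RYBP or YAF2, L3MBTL2, HDAC1 and HDAC2, and DNA-binding subunits: the MGA and MAX pair, which binds the E-box, and E2F6 with a TFDP partner. In ESCs it is known for holding silent the genes that germ cells use before and during meiosis, when homologous chromosomes are broken, paired and recombined, and the genes of the piRNA pathway, which silences transposons in germ cells.

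The promoters of these genes were inspected for the letters that the DNA-binding subunits recognise. The RefSeq promoter table (GRCm38.p6, 250 bases before to 50 after each start) held 33 of the 38 genes, with 41 promoters, and had no entry for Tdrd6, Spo11, Tex11, Piwil2 and Tex15. The E-box CACGTG, which reads the same on both strands, occurred in 17 of 41 promoters (41.5%) against 7.15% of all 32851 promoters of the table. An E2F6 motif, as TCCCGC or, on the other strand, GCGGGA, occurred in 18 (43.9%) against 20%, and both kinds in 9 (22%) against 1.99%. The promoters were also rich in CpG, with a median of 19 per 300 bases against 7 over the table, and a median GC content of 60.7% against 52.7%. Both motifs contain a CpG, and the shares over the table were not matched for CpG content. The genes were chosen as known targets of the complex whose subunits bind these motifs, so a high share is no independent result. Where a promoter held both, their starts lay 38 to 168 bases apart, and a match describes letters only. The strongest PCGF6 peak of each gene in untreated Parental cells covered 33 of the 41 promoters, in 28 of the 33 genes. Motifs were not more frequent at genes that rose. An E2F6 motif occurred in 31.8% of 22 genes called higher with OHT in Parental cells and in 72.7% of 11 not called. For the E-box the shares were 40.9% and 45.5%, and for both kinds 18.2% and 36.4%. This split was not tested.

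The following promoters are shown because they differ in motifs and in PCGF6 peak while 6 of their 7 genes rose with OHT, with capitals marking the E-box or an E2F6 form, 5′ to 3′ on the strand of the gene. Those of Ddx4 (chr13:112652261-112652560, minus strand), Mael (chr1:166238695-166238994, minus strand), Sycp1 (chr3:102936051-102936350, minus strand) and Stag3 (chr5:138280259-138280558, plus strand) hold both motifs.
Ddx4: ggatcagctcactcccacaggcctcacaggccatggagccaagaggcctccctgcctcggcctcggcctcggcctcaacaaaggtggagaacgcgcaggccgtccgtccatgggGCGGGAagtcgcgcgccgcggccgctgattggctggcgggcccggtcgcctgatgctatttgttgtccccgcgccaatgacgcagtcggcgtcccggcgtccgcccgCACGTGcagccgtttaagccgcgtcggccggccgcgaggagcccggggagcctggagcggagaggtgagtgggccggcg
Mael: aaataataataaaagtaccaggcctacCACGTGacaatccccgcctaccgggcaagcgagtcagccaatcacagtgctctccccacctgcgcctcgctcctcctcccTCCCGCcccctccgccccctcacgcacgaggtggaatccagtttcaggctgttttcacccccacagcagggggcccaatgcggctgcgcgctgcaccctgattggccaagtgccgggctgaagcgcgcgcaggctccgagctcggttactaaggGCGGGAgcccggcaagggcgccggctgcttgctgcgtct
Sycp1: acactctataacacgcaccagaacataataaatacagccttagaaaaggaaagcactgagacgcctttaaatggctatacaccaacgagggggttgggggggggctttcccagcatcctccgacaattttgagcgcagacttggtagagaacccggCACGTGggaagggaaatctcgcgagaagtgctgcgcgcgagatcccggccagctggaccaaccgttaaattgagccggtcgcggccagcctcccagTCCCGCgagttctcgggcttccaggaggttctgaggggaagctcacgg
Stag3: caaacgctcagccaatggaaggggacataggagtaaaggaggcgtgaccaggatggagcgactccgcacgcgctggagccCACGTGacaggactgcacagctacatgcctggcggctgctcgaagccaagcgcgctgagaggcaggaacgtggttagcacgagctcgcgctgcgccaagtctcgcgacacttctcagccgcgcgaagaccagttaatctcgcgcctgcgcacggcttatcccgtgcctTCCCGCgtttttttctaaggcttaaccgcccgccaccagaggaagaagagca
The first of 3 promoters of Tdrd1 (chr19:56825959-56826258, plus strand) holds an E-box alone, and that of Sycp2 (chr2:178407609-178407908, minus strand) holds neither motif although its gene had one of the highest-scoring PCGF6 peaks of the list. Stra8 (chr6:34920698-34920997, plus strand) has neither motif, and no peak of the antibodies in the promoter plot in untreated cells.
Tdrd1: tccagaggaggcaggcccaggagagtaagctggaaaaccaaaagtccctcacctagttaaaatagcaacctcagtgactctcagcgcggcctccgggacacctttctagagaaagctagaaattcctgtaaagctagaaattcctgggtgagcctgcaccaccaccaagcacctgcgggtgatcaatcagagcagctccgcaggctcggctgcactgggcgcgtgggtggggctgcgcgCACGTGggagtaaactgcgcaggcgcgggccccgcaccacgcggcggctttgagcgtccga
Sycp2: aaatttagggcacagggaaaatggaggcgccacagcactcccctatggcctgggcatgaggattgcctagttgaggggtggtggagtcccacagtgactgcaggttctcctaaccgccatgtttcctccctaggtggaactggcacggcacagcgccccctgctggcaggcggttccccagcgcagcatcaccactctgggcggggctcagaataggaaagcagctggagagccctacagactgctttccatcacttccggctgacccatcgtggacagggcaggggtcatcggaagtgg
Stra8: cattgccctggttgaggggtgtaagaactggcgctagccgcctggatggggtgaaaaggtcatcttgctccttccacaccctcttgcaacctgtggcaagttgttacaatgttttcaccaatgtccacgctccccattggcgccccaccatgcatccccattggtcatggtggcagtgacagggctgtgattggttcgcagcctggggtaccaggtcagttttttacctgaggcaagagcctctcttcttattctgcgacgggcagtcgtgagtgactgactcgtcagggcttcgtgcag

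In untreated Parental cells nearly all of these genes had a PCGF6 peak. A peak within 2.5 kb of an annotated start was listed at 34 of 38 genes (89.5%, 95% Wilson interval 75.9% to 95.8%), against 13.8% of all annotated gene names and 26.3% of protein-coding genes. The genes were chosen as known targets of the PCGF6 complex, so a high share follows from the choice and is no independent result. The interval does not cover that choice. The exceptions were Stra8, Piwil1, Piwil4 and Prdm9. The peaks sat on the start site: 33 of the 34 had their midpoint within 500 bp of a start, at a median distance of 110 bp. The peaks had a median width of 1115 bp. Their scores, the −log10 of the peak caller's p-value, had a median of 139.95, against 17.4 over all PCGF6 peaks of that library. The highest was at Ddx4, the germ cell RNA helicase known as Vasa, with a score of 517.57. Next came Stag3, a meiotic cohesin subunit, with 407.31, Sycp2, a lateral element protein of the synaptonemal complex, with 378.38, and Meioc, which upholds the meiotic programme, with 342.35. The lowest were at Tex15 (19.66) and Rec8 (15.16).

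The other PRC1 marks were less complete. RYBP, a subunit of the variant PRC1 forms, had a peak at 27 genes (71.1%, against 11.4% of protein-coding genes), RING1B at 24 (63.2%, against 17.6%) and H2AK119ub1 at 21 (55.3%, against 22.6%). PCGF2 and CBX7, which belong to the canonical form of PRC1, had a peak at 8 and 7 genes, and these shares, 21.1% and 18.4%, were close to those of protein-coding genes, 17.1% and 17.2%. Among PRC2 components and their mark, H3K27me3 had a peak at 26 genes (68.4%, against 26.6%), MTF2 at 31 (81.6%, against 50.1%), JARID2 at 23 (60.5%, against 31%), SUZ12 at 20 (52.6%, against 28.5%) and EPOP at 14 (36.8%, against 23.4%). AEBP2 had none, which 38 genes allow up to a share of 7.89% (3 of 38), against 4.11% of protein-coding genes. The 4 input lists were all H3K27me3 inputs of the MTF2 knockout lines, 3 of them with OHT. None held a peak at any of the 38 genes, against 0.109% to 0.118% of protein-coding genes. No input list of cells with intact MTF2, or for another antibody, was read. Several of these counts depend on the score: at a score of at least 20, RYBP was listed at 17 genes (against 2.32% of protein-coding genes), H3K27me3 at 11 (against 15%), SUZ12 at 13 (against 22.1%), H2AK119ub1 at 5 (against 9.34%) and PCGF2 at 4 (against 13.6%), while PCGF6 was listed at 32 (against 12.1%) and RING1B at 20 (against 12.8%). Counting error is the only error these intervals cover, and a neighbouring protein-coding gene starts within the same window at 4 genes, Stag3, Smc1b, Rec8 and Tex14.

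**Figure D1:**
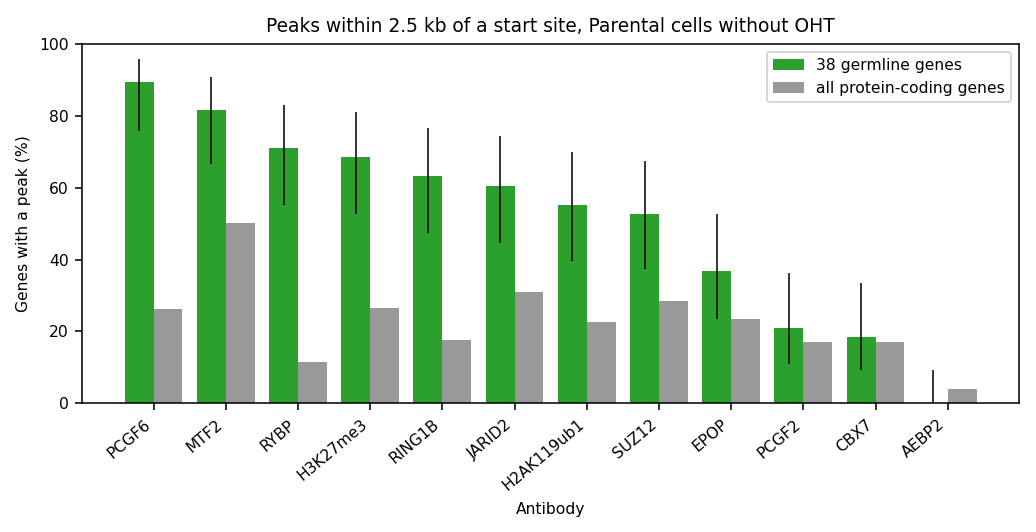
Share of genes with a peak within 2.5 kb of a start site (y axis, percent) for 12 antibodies (x axis) in Parental cells without OHT, 1 library each. Green bars are the 38 germline genes with 95% Wilson intervals, and grey bars all protein-coding genes. PCGF6 shows the widest gap, 89.5% against 26.3%, while PCGF2 and CBX7 lie near the grey bars. The 38 genes were chosen as known targets of the PCGF6 complex, which by itself favours a high PCGF6 share.

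The combinations divided the genes. All of PCGF6, RING1B, H2AK119ub1, H3K27me3 and SUZ12 were listed at 13 genes, of which 8 (Mael, Tdrkh, Piwil2, Sycp2, Syce1, Smc1b, Mei1 and Slc25a31) lacked a PCGF2 peak and 5 (Ddx4, Meioc, Tdrd1, Tdrd5 and Tdrd6) had one. At 6 genes, Sohlh2, Tdrd9, Asz1, Sycp3, Dmc1 and Tex14, PCGF6 was the only one of these 6 antibodies with a peak. Of those 6, Tdrd9 and Asz1 were called higher in Parental cells with OHT.

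**Figure D2:**
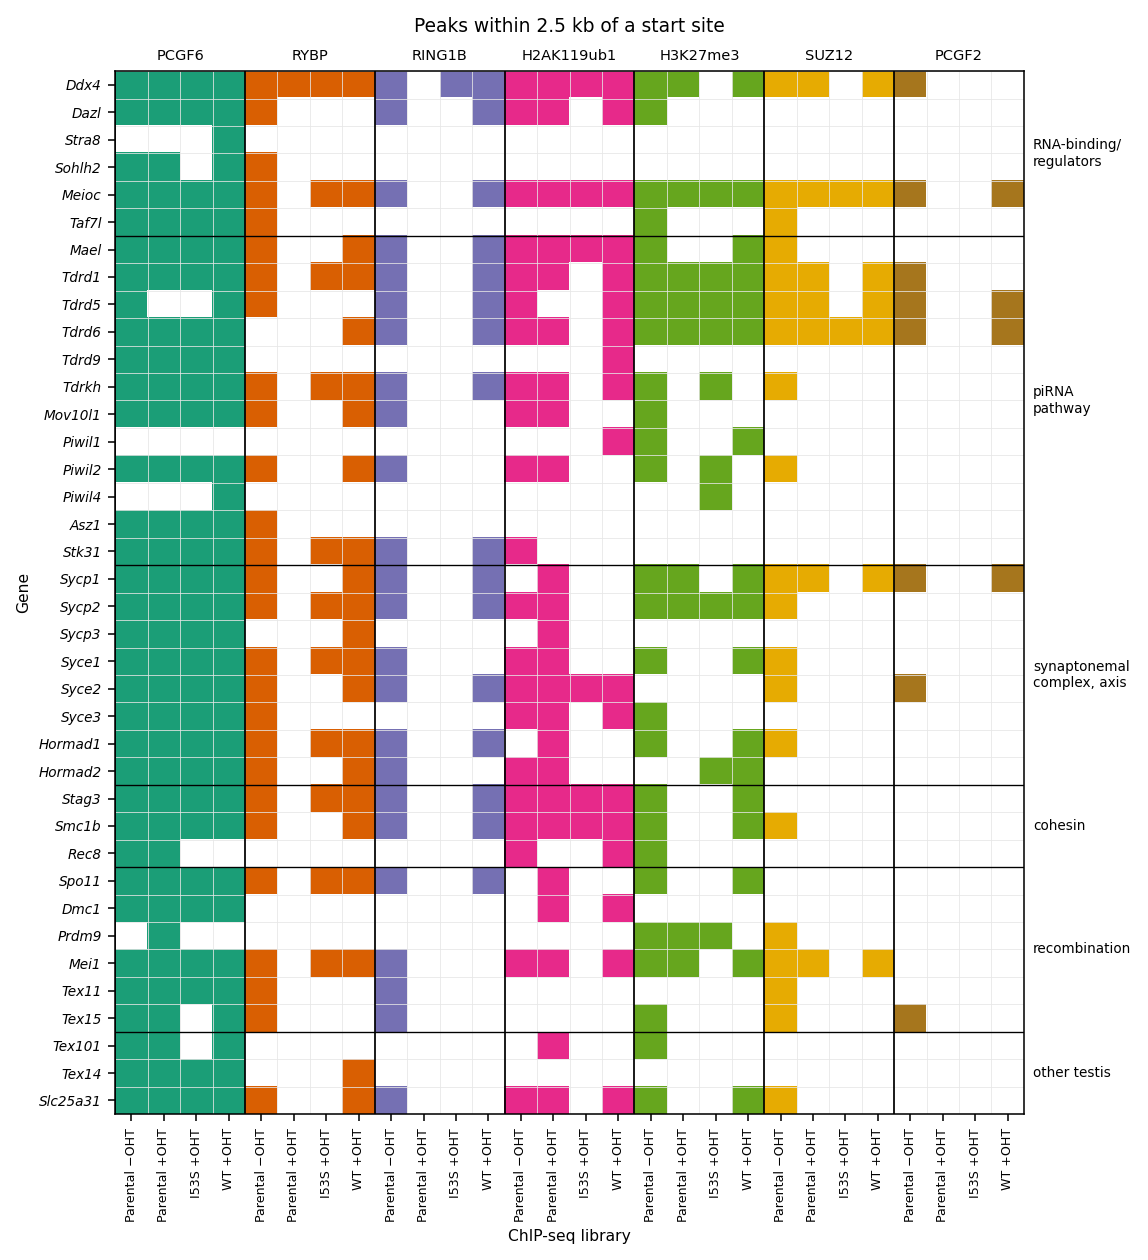
Peaks within 2.5 kb of a start site for each of the 38 genes (rows, by role) in 28 libraries (columns: 7 antibodies, 4 conditions each, 1 library per condition). A filled cell marks a listed peak. PCGF6 fills 34 cells in Parental cells without OHT and 34, 29 and 35 with OHT in Parental, RING1B I53S and RING1B WT cells, while the RING1B and PCGF2 columns are empty in Parental cells with OHT.

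Untreated cells already transcribed some of these genes. On a per-length scale (CPM divided by exon length in kb, written FPKM), the highest means in Parental cells without OHT were those of Syce2 with 44.8 ± 10.9 (SD, n = 2), Sohlh2 with 26.3 ± 6.47, Hormad1 with 23.0 ± 4.79, Syce1 with 22.1 ± 3.06, Sycp3 with 19.8 ± 0.0243, Tex14 with 16.2 ± 0.529 and Dmc1 with 11.9 ± 2.32. Sohlh2, Hormad1, Syce1 and Sycp3 each differed from the next of them by less than the larger SD of the pair, so their order is not set. Exons of Chpt1 overlap 52.2% of the exon length of Sycp3 and the counting used no strand, so part of its level may be Chpt1 reads. At the other end, Tdrd6 stood at 0.00875, Spo11 at 0.0623 and Tdrd1 at 0.0831 FPKM. Of the 7 highest genes, 6 were called in no OHT effect, Syce1 being the exception. The median FPKM of the 11 genes that were called nowhere was 11.9, against 1.51 for the 27 that were called.

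Most of the list was higher in Parental cells with OHT. Calls required a false discovery rate under 0.05 in edgeR's quasi-likelihood test together with a log2 fold change past 1.5 in either direction. In Parental cells 26 genes were called higher with OHT of 37 that passed the filter on low counts, and 0 lower, against 15.1% of all 18154 tested genes called higher and 1.83% lower. Spo11 did not pass the filter, and Tdrd6, which is among the 26, passed only through libraries with OHT. Of the 36 genes that pass on the libraries without OHT alone, 25 were called higher in Parental, 23 in RING1B I53S and 11 in RING1B WT cells. In 35 of 37 genes both libraries with OHT lay above both without, against 38.1% of all tested genes. The median log2 fold change was 2.35, against 0.03 over all tested genes, and the summed level of the 38 genes went from 567 and 651 CPM to 1841 and 1989. Leaving out 1 Parental library at a time gave 25 to 26 calls.

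**Figure D3:**
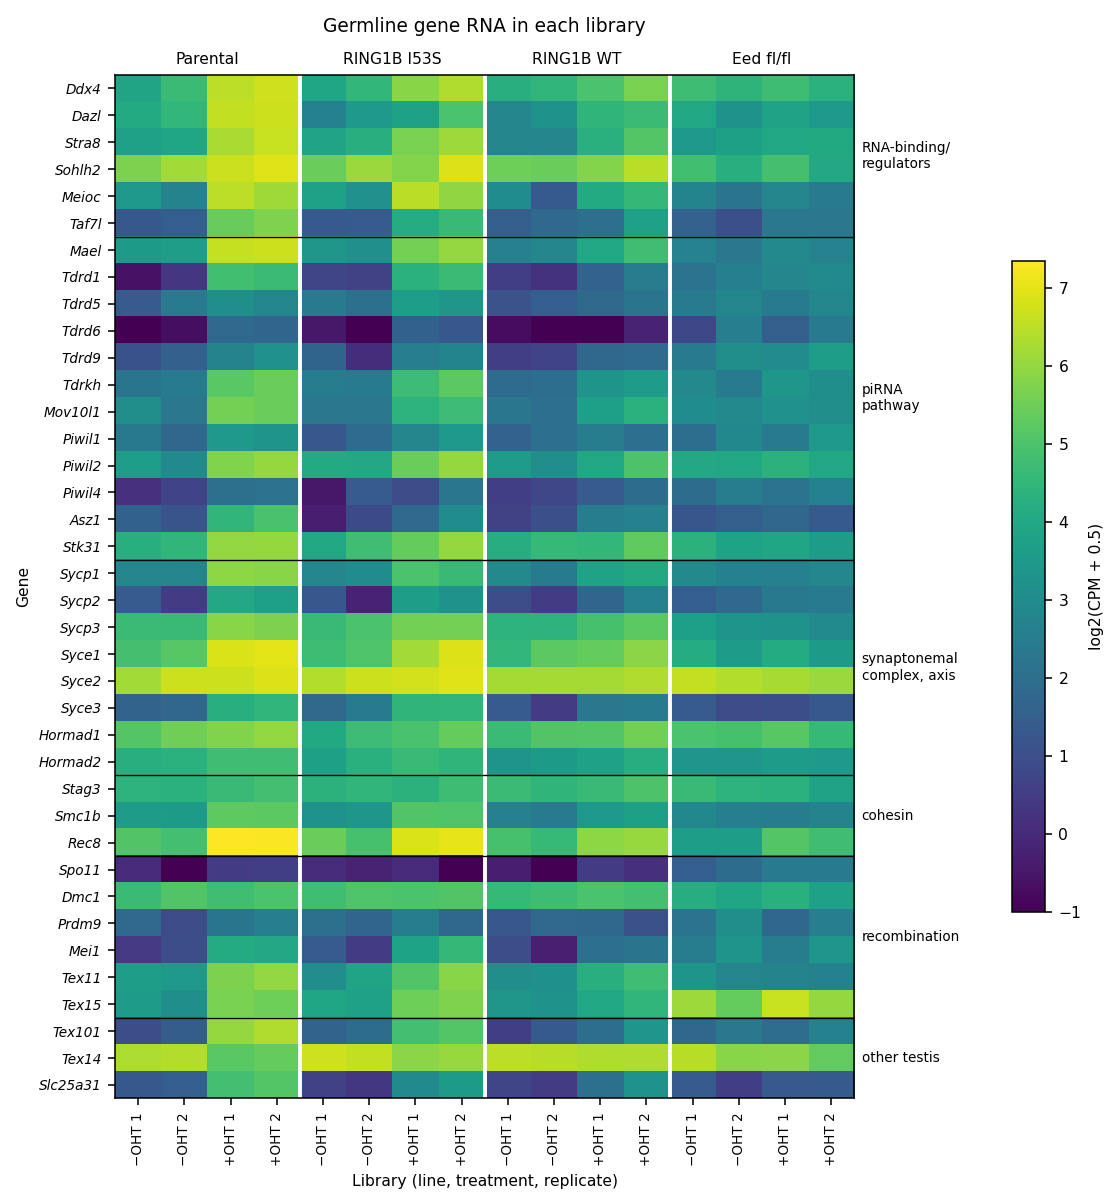
RNA of the 38 genes (rows, by role) in each of 16 libraries (columns, by line, treatment and replicate), as log2(CPM + 0.5) on the colour scale. The Parental and RING1B I53S libraries with OHT are brighter than those without for most genes, while the Eed fl/fl libraries with and without OHT look alike.

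Among germ cell RNA-binding proteins and regulators, 5 of 6 rose in Parental cells. Taf7l, a testis form of a TFIID subunit, had 1.96 and 2.35 CPM without OHT and 41.9 and 52.5 with it in Parental cells. In RING1B I53S cells it went from 2.01 and 2.21 to 17.6 and 24.9 CPM, and in RING1B WT cells from 2.35 and 3.07 to 3.72 and 13.2. The groups did not overlap in any of the 3 lines, and the RING1B WT libraries with OHT were far apart. The log2 fold changes were 4.46 ± 0.43 (SE, adjusted p = 3.57e-07, edgeR) in Parental, 3.33 ± 0.42 in RING1B I53S and 1.61 ± 0.44 in RING1B WT cells, the last not called. Stra8, a retinoic acid response gene needed for entry into meiosis, had 13.1 and 15 CPM without OHT and 77.2 and 99.4 with it in Parental cells. It had 14.1 and 18.5 against 50.4 and 69.1 CPM in RING1B I53S cells and 6.42 and 6.47 against 19 and 33.8 in RING1B WT cells. All 3 changes were called, at 2.66 ± 0.27 (adjusted p = 5.33e-07, edgeR), 1.87 ± 0.26 and 2.03 ± 0.29. Meioc had 10.3 and 6.18 CPM without OHT and 91.4 and 71.7 with it in Parental cells. In RING1B I53S cells its levels were 13.2 and 8.83 against 88.5 and 61.4 CPM, and in RING1B WT cells 7.91 and 2.08 against 16.5 and 23.3. It was called in all 3 lines, at 3.28 ± 0.38 (adjusted p = 2.51e-06, edgeR), 2.76 ± 0.37 and 1.98 ± 0.40. Ddx4 and Dazl, an RNA-binding protein of early germ cells, rose by 2.35 each in Parental cells. Sohlh2, a transcription factor of spermatogonia and oocytes, was not called, at 0.85 ± 0.30.

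Of the 12 piRNA pathway genes, 10 rose in Parental cells, with a median log2 fold change of 2.71 over the 12. Tdrd1, a Tudor domain protein that binds PIWI proteins, had 0.163 and 0.742 CPM without OHT and 27.8 and 25.4 with it. In RING1B I53S cells it went from 1.16 and 1.05 to 19.8 and 25.1 CPM, and in RING1B WT cells from 0.963 and 0.658 to 2.62 and 5.23. The lowest library with OHT was above the highest without in each line, and the log2 fold changes were 6.01 ± 0.48 (adjusted p = 3.71e-08, edgeR), 4.32 ± 0.40 and 2.24 ± 0.48. Mael, which is needed to silence transposons in the testis, had 11.3 and 12.4 CPM without OHT and 97 and 105 with it in Parental cells. It had 10.2 and 8.54 against 48 and 65.2 CPM in RING1B I53S cells, and 5.78 and 6.58 against 15.5 and 27.3 in RING1B WT cells. Its changes were called in the 3 lines, at 3.10 ± 0.26 (adjusted p = 7.37e-08, edgeR), 2.59 ± 0.26 and 1.78 ± 0.27. Tdrkh, a Tudor domain partner of PIWI proteins at mitochondria, had 4.24 and 5.07 CPM without OHT and 36.7 and 44.3 with it in Parental cells. Its levels were 5.25 and 5.08 against 26 and 37 CPM in RING1B I53S and 3.31 and 3.51 against 9.56 and 11.7 in RING1B WT cells. The log2 fold changes were 3.13 ± 0.27 (adjusted p = 1.11e-07, edgeR), 2.61 ± 0.27 and 1.63 ± 0.29, but exons of Oaz3 overlap 36.7% of its exon length and the counting used no strand, so reads there cannot be told apart. Mov10l1, a helicase that processes piRNA precursors, had 8.15 and 4.45 CPM without OHT and 48.4 and 44.4 with it in Parental cells. It had 4.56 and 4.51 against 20.4 and 25.8 CPM in RING1B I53S cells, and 4.38 and 3.62 against 12.7 and 19.4 in RING1B WT cells. It was called in all 3 lines, at 2.85 ± 0.30 (adjusted p = 7.58e-07, edgeR), 2.35 ± 0.30 and 1.99 ± 0.31.

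The remaining piRNA genes changed over a wide range in Parental cells. Tdrd6 rose by 5.58 from 0 and 1 count, so this fitted value depends on the prior count, and its levels with OHT were only 3.07 and 2.83 CPM. Asz1 rose by 3.59, Piwil2, a PIWI protein of fetal and spermatogonial germ cells, by 2.58, Tdrd9 by 1.89 and Stk31 by 1.65. Piwil4 was called at 2.13, but the call was lost on leaving out any one of the 4 Parental libraries, with adjusted p up to 0.155 (edgeR). The call of Tdrd9 was lost without Parental −OHT replicate 1 or Parental +OHT replicate 2. Piwil1, the PIWI protein of meiotic and later stages, was called only in RING1B I53S cells, at 1.72 ± 0.39 against 1.42 ± 0.38 in Parental cells, and that call was lost without RING1B I53S −OHT replicate 1 or +OHT replicate 2. Tdrd5 passed the false discovery rate but not the fold threshold in Parental cells, at 1.12 ± 0.38.

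Among the structural genes of meiotic chromosomes, 4 of the 8 synaptonemal complex and axis genes and 2 of the 3 cohesin genes rose in Parental cells. Sycp1, the transverse filament protein of the synaptonemal complex, had 6.44 and 6.43 CPM without OHT and 60 and 58.3 with it in Parental cells. It had 6.72 and 7.87 against 31.3 and 24.6 CPM in RING1B I53S cells, and 7.06 and 4.94 against 14 and 16.3 in RING1B WT cells. The log2 fold changes were 3.20 ± 0.26 (adjusted p = 3.87e-08, edgeR), 1.94 ± 0.25 and 1.33 ± 0.26, the last under the fold threshold. Syce3, a central element protein, had 2.69 and 2.84 CPM without OHT and 18.3 and 21.9 with it in Parental cells. Its levels were 3.17 and 4.99 against 21.7 and 22.1 CPM in RING1B I53S cells, and 2.14 and 0.878 against 4.53 and 5.11 in RING1B WT cells. It was called in all 3 lines, at 2.86 ± 0.34 (adjusted p = 3.51e-06, edgeR), 2.43 ± 0.32 and 1.66 ± 0.40. Sycp2 rose by 3.17 and Syce1, another central element protein, by 1.92 in Parental cells. Sycp3, whose product pairs with that of Sycp2 in the lateral element, stood at 1.12 ± 0.21, and exons of Chpt1 overlap 52.2% of its exon length. Syce2, Hormad1 and Hormad2, the last pair being axis proteins of unpaired chromosomes, were at 0.35, 0.56 and 0.50 and were not called.

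Rec8, the meiotic kleisin, had 33.6 and 28.2 CPM without OHT and 162 and 157 with it in Parental cells, 44.3 and 29.6 against 117 and 132 in RING1B I53S cells, and 29.6 and 23.6 against 60.8 and 66.5 in RING1B WT cells. All libraries with OHT lay above all those without in the 3 lines. The log2 fold changes were 2.37 ± 0.22 (adjusted p = 1.76e-07, edgeR), 1.75 ± 0.21 and 1.26 ± 0.21. The call in RING1B I53S cells was lost without RING1B I53S −OHT replicate 2. Smc1b, the meiotic SMC1, rose by 1.73, while Stag3, with the second-highest PCGF6 score, was at 0.40 ± 0.23 and not called.

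Of the recombination genes, 3 of 5 tested rose in Parental cells. Mei1, needed for meiotic double-strand breaks, had 0.815 and 1.48 CPM without OHT and 17.2 and 15.8 with it in Parental cells. It had 2.16 and 0.863 against 13.8 and 22.9 CPM in RING1B I53S cells, and 1.5 and 0.329 against 3.62 and 4.11 in RING1B WT cells. The log2 fold changes were 3.89 ± 0.48 (adjusted p = 5.69e-06, edgeR), 3.56 ± 0.45 and 2.06 ± 0.54, the last not called. Tex15 had 11.5 and 8.41 CPM without OHT and 50.3 and 44.5 with it in Parental cells, 15 and 13.2 against 44.8 and 52.4 in RING1B I53S cells, and 10.3 and 9.11 against 15.6 and 22 in RING1B WT cells. It was called in the first 2 lines, at 2.24 ± 0.24 (adjusted p = 1.34e-06, edgeR) and 1.78 ± 0.24. Tex11, an X-linked crossover gene, rose by 2.31 in Parental cells. Dmc1, the meiotic recombinase, was at 0.00 ± 0.21 and had a PCGF6 peak. Prdm9, which marks recombination sites, was at 1.06 ± 0.47 and not called. Spo11, which cuts the double-strand breaks, was at or below 0.975 CPM in the 12 libraries of the RING1B lines and at 2.35 to 5.10 CPM in Eed fl/fl cells.

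Of the 3 other testis genes, 2 rose. Tex101, a surface protein of testis germ cells, had 1.47 and 2.23 CPM without OHT and 65 and 81.5 with it in Parental cells. It had 2.63 and 3.36 against 28.2 and 34.4 CPM in RING1B I53S cells, and 0.963 and 2.08 against 3.52 and 9.84 in RING1B WT cells. The log2 fold changes were 5.34 ± 0.41 (adjusted p = 2.50e-08, edgeR), 3.39 ± 0.37 and 2.1 ± 0.45, and the first had the lowest adjusted p of the list. Slc25a31, the testis ADP/ATP carrier, had 1.96 and 2.35 CPM without OHT and 28.7 and 34 with it in Parental cells. It had 1.08 and 0.767 against 7.42 and 11.2 CPM in RING1B I53S cells, and 1.18 and 0.878 against 3.72 and 9.34 in RING1B WT cells. It was called in the 3 lines, at 3.87 ± 0.40 (adjusted p = 6.64e-07, edgeR), 3.30 ± 0.44 and 2.63 ± 0.46. Tex14, which keeps the bridges between germ cells open, had 79.5 and 83.2 CPM without OHT and 36.4 and 40.9 with it in Parental cells. Its log2 fold change of −1.07 ± 0.18 passed the false discovery rate (adjusted p = 0.000128, edgeR) but not the fold threshold, and it was the 1 gene of the list with both libraries with OHT below both without, as were 32.7% of all tested genes.

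**Figure D4:**
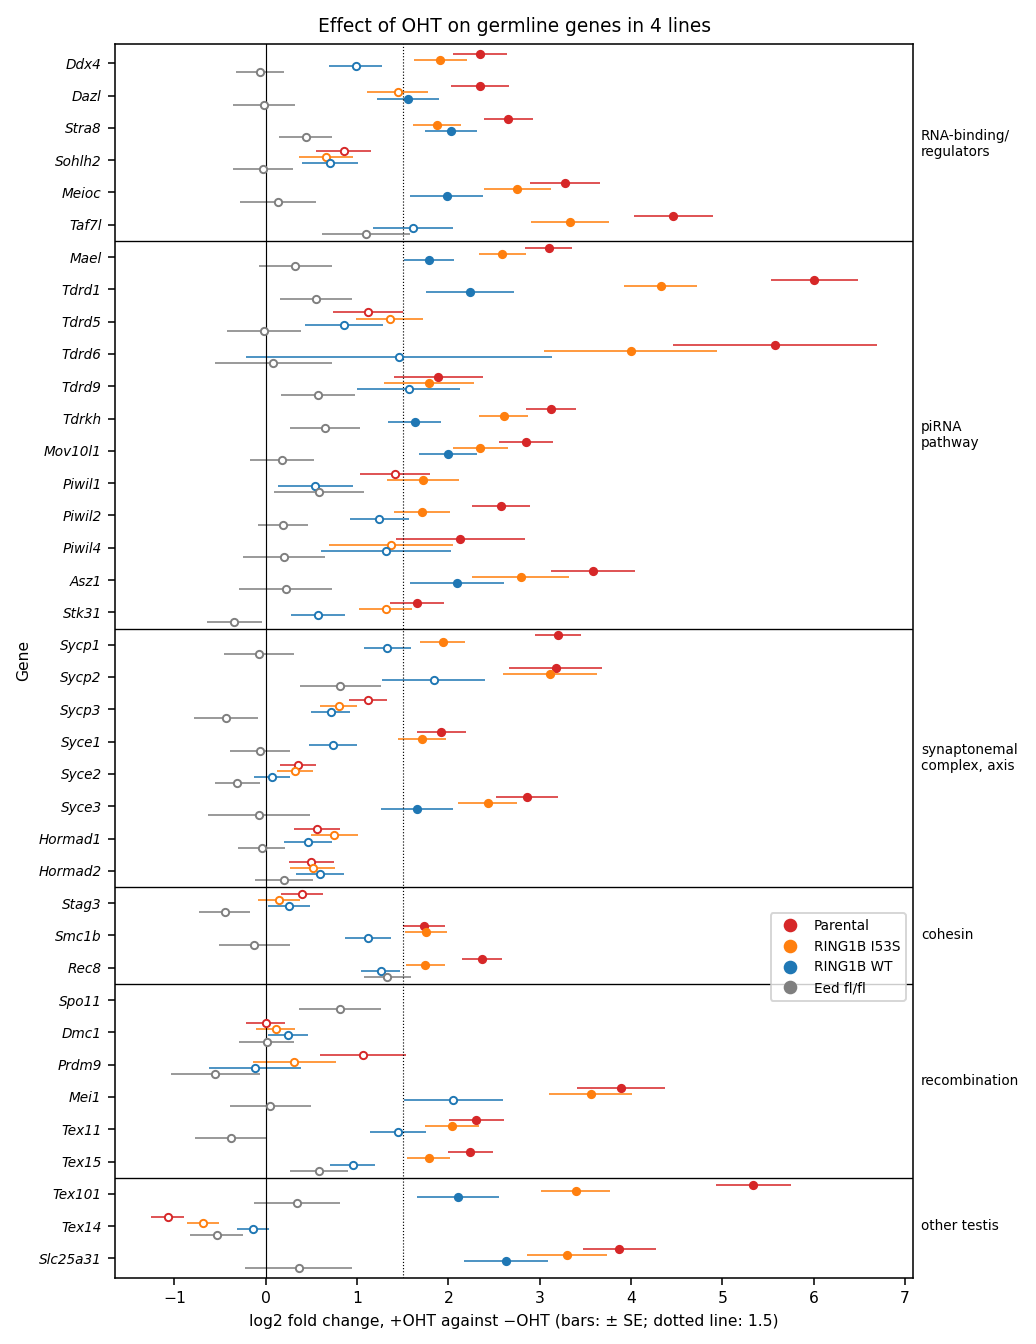
Log2 fold change of each of the 38 genes (y axis, by role) with OHT against without (x axis, bars ± SE) in Parental (red), RING1B I53S (orange), RING1B WT (blue) and Eed fl/fl (grey) cells, with 2 libraries per group. Filled points are called, the dotted line marks 1.5, and Spo11 has a value only in Eed fl/fl cells. Red points reach 6.01 (Tdrd1), and all grey points are open.

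Cells with RING1B I53S in place of endogenous RING1B gave nearly the same calls. With OHT, 24 genes were called higher and 0 lower, against 12.8% of all tested genes called higher and 1.04% lower, and both libraries with OHT lay above both without in 31 of 37 genes, against 31.5%. The calls shared with Parental cells were 23, which is 88.5% of the Parental and 95.8% of the RING1B I53S calls, and Dazl, Piwil4 and Stk31 were called in Parental but not in RING1B I53S cells. The median log2 fold change was 1.78, and in 30 of 37 genes the value was below the Parental one. The difference between the 2 OHT effects was called for 0 genes (edgeR and DESeq2), with 5 at an unadjusted p under 0.05, and for 0 of all tested genes. Compared directly with OHT, 3 genes were called lower and 0 higher in the RING1B I53S line relative to Parental, against 0.0936% of all tested genes called lower and 0.0661% higher. Dazl had 13.2 and 31.2 CPM in RING1B I53S cells against 94.5 and 105 in Parental cells, with a log2 difference of −2.16 ± 0.32 (adjusted p = 0.00224, edgeR). Asz1 differed by −2.24 ± 0.41 and Slc25a31 by −1.75 ± 0.34. Without OHT no gene was called between these lines (edgeR and DESeq2), with 6 at an unadjusted p under 0.05 and 0.154% of all tested genes called, though Dazl stood at 5.87 and 10.7 CPM in RING1B I53S against 16.7 and 22.6 in Parental cells. These 3 calls fell to 1 without Parental +OHT replicate 1 or 2, and to 0 without RING1B I53S +OHT replicate 1.

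Fewer genes were called in RING1B WT cells. With OHT, 11 genes were called higher and 0 lower in RING1B WT cells, against 1.34% of all tested genes called higher and 0.0386% lower. The median log2 fold change was 1.32, against 0.02 over all tested genes, and both libraries with OHT lay above both without in 30 of 37 genes, against 26.9%. The summed level went from 502 and 512 CPM to 713 and 956. The 11 called genes were Dazl, Stra8, Meioc, Mael, Tdrd1, Tdrkh, Mov10l1, Asz1, Syce3, Tex101 and Slc25a31. Single libraries decided this count. Leaving out RING1B WT −OHT replicate 2 left 2 calls (Stra8 and Mael), and leaving out +OHT replicate 2, the library with the higher summed level, left 1 (Stra8). It was 17 at the false discovery rate with no fold threshold.

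Set against Parental cells with OHT, RING1B WT cells with OHT had 17 of the genes lower and 0 higher, against 7.62% of all tested genes called lower and 1.06% higher. Tex101 was lower by 3.48 ± 0.36 on the log2 scale, Tdrd1 was lower by 2.78 ± 0.36 and Mael by 2.25 ± 0.25, in the same libraries as above. Set against RING1B WT, RING1B I53S cells with OHT had 9 genes higher and 0 lower, against 6.02% of all tested genes called higher and 0.6% lower: Meioc, Tdrd1, Tdrd5, Tdrd6, Tdrkh, Syce3, Smc1b, Mei1 and Tex101. Their log2 differences ran from 1.52 ± 0.23 at Smc1b to 3.6 ± 0.97 at Tdrd6. Tdrd6 passed the filter only through libraries with OHT and had 0 and 3 counts in RING1B WT cells with OHT, so its fitted value depends on the prior count. That count became 4 when RING1B WT +OHT replicate 1 was left out and 14 when replicate 2 was. Both comparisons use the RING1B WT libraries with OHT. Without OHT, no gene was called between RING1B WT and Parental cells (edgeR and DESeq2), with 6 at an unadjusted p under 0.05 and 0.0606% of all tested genes called. The value was below 0 in 27 of 37 genes, with a median of −0.28.

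The difference in OHT effect between RING1B WT and Parental cells was called for 4 genes, all with the smaller rise in RING1B WT cells, against 1.1% of all tested genes with a smaller and 0.435% with a larger effect. It was −3.77 ± 0.77 for Tdrd1 (adjusted p = 0.0115, edgeR), −3.24 ± 0.64 for Tex101 (adjusted p = 0.00939), −2.85 ± 0.62 for Taf7l (adjusted p = 0.0190) and −1.87 ± 0.36 for Sycp1 (adjusted p = 0.00732). Leaving out replicate 1 of either vehicle group gave 2 calls, leaving out RING1B WT +OHT replicate 1 gave 1, and leaving out its replicate 2 gave 6. In 34 of 37 genes the value in RING1B WT cells was below the Parental one.

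The list was not called in Eed fl/fl cells. With OHT 0 of 38 genes were called in either direction (edgeR and DESeq2), with 2 at an unadjusted p under 0.05, and 0.00795% of all 25170 tested genes were called higher and 0 lower. The median log2 fold change was 0.11, against 0.08 over all tested genes, and the summed level was 493 and 592 CPM without OHT and 504 and 614 with it. The 2 genes were Rec8, with 12.1 and 12.2 CPM against 34.4 and 26.9 and a log2 fold change of 1.33 ± 0.26 (adjusted p = 0.181, edgeR), and Taf7l, with 2.59 and 1.55 CPM against 4.48 and 4.42 at 1.10 ± 0.48. Both libraries with OHT lay above both without in 9 of 38 genes, against 22.1% of all tested genes. Tex15 stood higher in this line than in the others already without OHT, at 69.2 and 40.8 CPM.

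PCGF6 peaks were listed at most of these genes in every line with OHT. Lists of the RING1B WT and I53S lines without OHT were used for MTF2 and JARID2 alone, so for the other antibodies their lists with OHT are set beside untreated Parental cells, and line and treatment cannot be told apart. With OHT, a PCGF6 peak was listed at 34 genes in Parental cells, 33 of them the same, against 17.9% of protein-coding genes, at 29 (76.3%) in RING1B I53S cells, against 9.2%, and at 35 in RING1B WT cells, against 25.3%. Tdrd5 lost its peak and Prdm9 gained one in Parental cells. Rec8, Sohlh2, Tdrd5, Tex101 and Tex15 had none in RING1B I53S cells. The whole lists were of unequal length, with 7882 PCGF6 peaks in untreated Parental cells and 4767, 2377 and 7357 with OHT in the Parental, RING1B I53S and RING1B WT lines, and the part of list length in these counts was not tested. The median score at the listed genes was 139.95 in untreated Parental cells, and 94.34, 54.8 and 101.48 with OHT in the same order. Over all PCGF6 peaks the medians were 17.4, 17.64, 16.63 and 21.22. A listed peak thus does not show unchanged PCGF6 binding, and the difference in scores was not tested. The paper reports that loss of H2AK119ub1 also affected PCGF6 binding, though much less than that of canonical PRC1. It places this effect at sites shared with PCGF2, and reports none at targets unique to PCGF6. In untreated Parental cells a PCGF2 peak was listed at 8 of the genes described here. Whether the PCGF6 scores differed between genes with and without a PCGF2 peak was not tested.

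RYBP and RING1B peaks were listed at fewer genes in the lists with OHT than in untreated Parental cells. RYBP was listed at 27 genes in untreated Parental cells, at 11 in RING1B I53S cells with OHT, against 3.08% of protein-coding genes, and at 22 in RING1B WT cells with OHT, against 4.55%. The library read here as Parental with OHT carries the title PARE72-Rybp, which does not spell out the treatment. It listed RYBP at 1 gene, Ddx4, against 0.255% of protein-coding genes. RING1B was listed at 24 genes in untreated Parental cells, at 0 with OHT, against 1.36% of protein-coding genes, and at 1 gene, Ddx4, in RING1B I53S cells, against 2.73%. In RING1B WT cells with OHT it was listed at 16 genes, against 13.3%, all of them among the 24. A count of 0 of 38 allows a share of up to 7.89%.

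In the peak lists of Parental cells, H2AK119ub1 peaks differed in position more than in the number of genes. With OHT, a peak was listed at 24 genes in Parental cells, against 20.2% of protein-coding genes, and 18 of these were among the 21 of untreated cells. Dmc1, Hormad1, Spo11, Sycp1, Sycp3 and Tex101 had a peak only with OHT. The position of the peaks differed: with OHT in Parental cells the midpoint of 22 of 24 lay within 500 bp of a start, at a median distance of 224 bp, while in untreated cells 4 of 21 did, at a median of 686 bp. In RING1B I53S cells a peak was listed at 6 genes (Ddx4, Mael, Meioc, Smc1b, Stag3 and Syce2), against 11.1% of protein-coding genes, and in RING1B WT cells at 18, against 27.2%. All 6 midpoints in RING1B I53S cells lay within 500 bp of a start, at a median of 237 bp. In RING1B WT cells with OHT 9 of 18 did, at a median of 494 bp, so peaks nearer the start were not limited to Parental cells with OHT. The lists hold no reads, so how much H2AK119ub1 lay under these peaks was not analysed here. A listed peak therefore does not show that the mark was kept. By western blot the paper reports a global loss of H2AK119ub1 in Parental and in RING1B I53S cells with OHT. By ChIP-seq it reports a complete loss at PRC1 target loci in RING1B I53S cells.

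**Figure D5:**
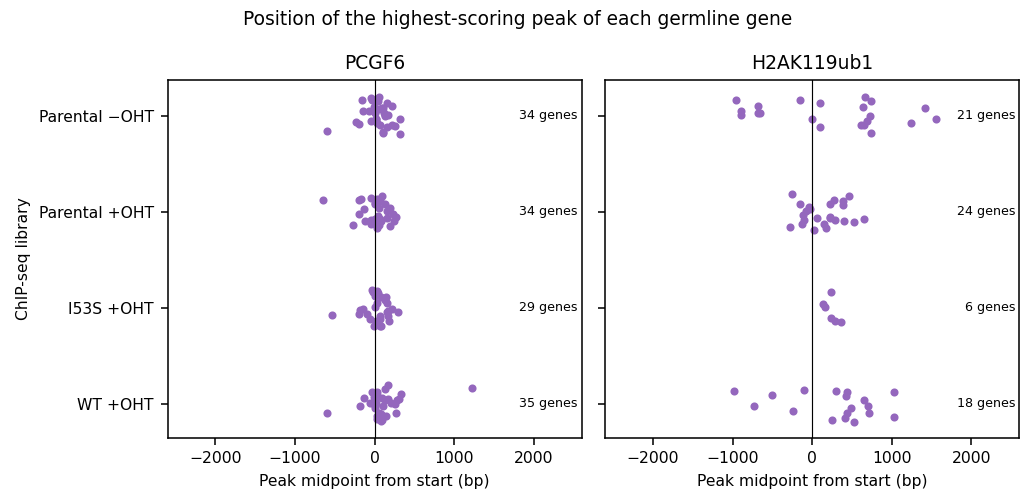
Distance of the midpoint of each gene's highest-scoring peak from the nearest start site (x axis, bp, positive downstream) for PCGF6 (left) and H2AK119ub1 (right) in 4 libraries (rows), 1 point per gene with a peak. PCGF6 points gather at 0 in all rows, while H2AK119ub1 points lie on the flanks in untreated Parental cells and near 0 in Parental and RING1B I53S cells with OHT. In RING1B WT cells with OHT 9 of 18 H2AK119ub1 points lie within 500 bp of a start.

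PRC2 and its mark were listed at fewer genes in the lists with OHT than in untreated Parental cells. H3K27me3 was listed at 26 genes in untreated Parental cells and, with OHT, at 9 in Parental, 10 in RING1B I53S and 17 in RING1B WT cells, against 21.4%, 18% and 26.2% of protein-coding genes. In untreated Parental cells 16 of 26 midpoints of the highest-scoring peaks lay within 500 bp of a start, at a median of 345 bp. With OHT 4 of 9, 2 of 10 and 10 of 17 did in the same order of lines, at medians of 1001, 2058 and 419 bp. Most peaks in RING1B I53S cells thus lay away from the start. SUZ12, a core subunit of PRC2, was listed at 20 genes and, with OHT, at 7, 2 and 7, against 20.9%, 12.8% and 23.6%. Meioc and Tdrd6 had a SUZ12 peak in all 4 libraries. With MTF2 knocked out, H3K27me3 was listed at 9 genes in untreated Parental cells, against 11.2%. With OHT in the same knockout it was listed at 1 gene in Parental, 1 in RING1B I53S and 7 in RING1B WT cells, against 0.596%, 2.41% and 6.96%. MTF2 and JARID2 had lists without OHT in each line, with unequal counts between lines and 1 library each. MTF2 was listed at 31 genes in untreated Parental cells, at 13 in untreated RING1B I53S cells, against 32.7%, and at 17 in untreated RING1B WT cells, against 36%. After 48 h of OHT it was listed at 7, 7 and 12 genes in the Parental, RING1B I53S and RING1B WT lines, against 28.4%, 29.4% and 30.2%. After 72 h it was listed at 5 genes in Parental cells, against 24.7%, at 3 and 4 in 2 RING1B I53S libraries, against 11.3% and 25.1%, and at 10 and 11 in 2 RING1B WT libraries, against 27.6% and 24.7%. JARID2 was listed at 23 genes in untreated Parental cells, at 8 in untreated RING1B I53S cells, against 19.3%, and at 10 in untreated RING1B WT cells, against 21.3%. After 48 h it was listed at 3, 1 and 7 genes in the same order, against 10.7%, 3.79% and 17.9%. After 72 h it was listed at 1 gene in Parental cells, against 4.88%, at 1 and 0 in RING1B I53S cells, against 3.78% and 1.51%, and at 8 and 7 in RING1B WT cells, against 18.3% and 18%. The RING1B WT counts for JARID2, 10 without OHT and 7 to 8 with it, thus lay close together. EPOP was listed at 3, 2 and 9 genes in the Parental, RING1B I53S and RING1B WT lines, against 10.1%, 11% and 23.6%. In the same order PCGF2 was listed at 0, 0 and 4 genes, against 0.273%, 2.3% and 12.7%, and CBX7 at 0, 0 and 3, against 0.209%, 0.105% and 9.02%.

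Genes that rose were found with and without each peak in untreated Parental cells. Of 33 tested genes with a PCGF6 peak 24 were called higher in Parental cells, with a median log2 fold change of 2.35, and of the 4 without one 2 were, Stra8 and Piwil4, with a median of 1.77. Over all tested genes 23.3% of those with a PCGF6 peak and 11.4% of those without were called higher. Of 21 genes with an H2AK119ub1 peak 17 rose, with a median of 2.58, and of 16 without one 9, with a median of 2.01, against 36.7% and 7.6% of all tested genes with and without it. For H3K27me3 the counts were 20 of 25, with a median of 2.85, and 6 of 12, with a median of 1.39. Over all tested genes 42.1% of those with an H3K27me3 peak and 4.32% of those without were called higher. The split was not tested. The 11 genes that were called nowhere included 10 with a PCGF6 peak and 4 with an H2AK119ub1 peak.

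Other genes near this list behaved unequally in Parental cells with OHT. Of 23 further meiosis and piRNA genes 21 were tested and 10 rose, 0 fell, against 15.1% of all tested genes called higher and 1.83% lower. Their median log2 fold change was 1.51, and the lowest adjusted p was that of Tuba3b at 3.83 ± 0.44 (adjusted p = 2.05e-06, edgeR). In RING1B I53S cells 7 rose, against 12.8% of all tested genes, and in RING1B WT cells 2, against 1.34%. In Eed fl/fl cells 0 were called, against 0.00795% called higher and 0 lower. Of 8 regulators of primordial germ cells 7 were tested, of which Dppa3 (at 1.57 ± 0.18) and Nanos3 rose and Prdm14, a pluripotency and germ cell factor, fell by 1.65 ± 0.21 on the log2 scale. These 2 rises and 1 fall stand beside the same shares of all tested genes, 15.1% and 1.83%. None of the 14 subunits of PRC1.6, among them Rnf2 itself, was called in Parental cells (edgeR). Of the 14, 10 had an unadjusted p under 0.05 and 6 were lower at the false discovery rate alone, with Pcgf6 at −0.51. Their summed level was 1590 to 1662 CPM without and 1155 to 1187 with OHT in Parental cells. The share of all tested genes at these looser criteria is not given here. Both libraries with OHT lay below both without in 32.7% of all tested genes, so these counts are not read as particular to PRC1.6. Of 11 genes of DNA and H3K9 methylation 1 was called in Parental cells, against 1.83% of all tested genes called lower. It was Tet2, which fell by 1.94 ± 0.20 on the log2 scale. At the false discovery rate alone 5 of the 11 were lower and 1 higher, again with no share of all tested genes at that criterion. The median was −0.45, against 0.03 over all tested genes.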

How the data were processed

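ChIP-seq reads were aligned to mm10 by the authors with Bowtie 1.2.2, and peaks were called per library with MACS2 2.1.1. The deposited score of a peak is its −log10 p-value, at least 10 in every list. RNA-seq reads (SMART-seq2) were aligned with STAR 2.7 and deduplicated, and the authors deposited raw counts per GENCODE M21 gene name, made with featureCounts without strand. The genes and the other lists were chosen with earlier results of these data known. Counts were scaled by TMM, filtered with filterByExpr and tested in edgeR 4.0.16 (R 4.3.3) by quasi-likelihood, with 12 libraries of the RING1B lines in 1 fit and the 4 Eed fl/fl libraries in another. The biological coefficients of variation were 0.181 and 0.251. FPKM used the summed exon length of each gene. A peak counted when it came within 2.5 kb of any start in the annotation, with at least 1 bp of overlap. Peaks were read in Python 3.11.15. All 38 genes are named. At most 14 called genes, those with the lowest adjusted p over the 4 OHT effects, are given in full. Of the other lists, the called gene of smallest adjusted p is named, for rises and falls apart, and Nanos3 and Pcgf6 were added after their values were seen. Authors' tables of comparisons and normalized counts were not used. DESeq2 and the other settings are given in the closing section. Both steps were tested on simulated data.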

Additional observations from a re-analysis of the deposited data

Results flagged for a closer look

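For 4 genes the effect of OHT was smaller with RING1B WT than in Parental cells by a test of that difference (edgeR, interaction of line and treatment). The log2 difference was −3.77 for Tdrd1, −3.24 for Tex101, −2.85 for Taf7l and −1.87 for Sycp1, each with the smaller rise in RING1B WT cells. Each of these calls was lost on leaving out at least 1 library: Sycp1 without RING1B WT −OHT replicate 1 or +OHT replicate 1, Tex101 without RING1B WT −OHT replicate 2, Tdrd1 without replicate 1 of RING1B WT with or without OHT or of Parental −OHT, and Taf7l without 1 of 4 libraries.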

How the results depend on the processing

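The number of genes called was recomputed with DESeq2, RLE scaling, other filters, no fold threshold, a fit of each comparison alone, a replicate block and each library left out, and the number with a peak with other windows, starts and scores. DESeq2 called 26 genes in Parental, 24 in RING1B I53S, 14 in RING1B WT and 0 in Eed fl/fl cells. The RING1B I53S count of 24 ran from 16 (10 counts in every library) to 30 (no fold threshold). Requiring 10 counts in every library, which fewer genes pass, gave 17 of 26 in Parental cells, 6 of 11 in RING1B WT cells, 9 of 17 for RING1B WT against Parental with OHT, 4 of 9 for RING1B I53S against RING1B WT and 1 of 3 for RING1B I53S against Parental. Without the fold threshold the calls were 17 for the OHT effect in RING1B WT cells, 28 (27 lower, 1 higher) for RING1B WT against Parental and 18 for RING1B I53S against RING1B WT. Leaving out 1 library gave 25 to 26 in Parental, 21 to 26 in RING1B I53S, 1 to 12 in RING1B WT and 0 in Eed fl/fl cells, 0 to 3 for RING1B I53S against Parental, 13 to 22 for RING1B WT against Parental, 4 to 14 for RING1B I53S against RING1B WT, and 1 to 6 where the OHT effects of RING1B WT and Parental cells were compared. A lone library was then assumed to vary like the other groups. A score of at least 20 left 17 genes with RYBP, 11 with H3K27me3, 13 with SUZ12, 5 with H2AK119ub1 and 4 with PCGF2, while the PCGF6 count was 32 to 34 in all 5 alternatives. Over single genes, 936 values were on the same side of the threshold and 73 were weaker, with none reversed. Nothing in the labels ties libraries of the same number together. Correlations of same-numbered deviations ran from −0.003 to 0.301 over the 15 pairs of groups of the RING1B lines, some above and some below 0.1, and the 1 pair of Eed fl/fl groups had 0.459, so whether the numbers pair the samples is not settled. With a replicate block 26 genes were called in Parental, 24 in RING1B I53S and 13 in RING1B WT cells, and no count moved by over 1.5 times. Depth limits genes such as Tdrd6 and Spo11, whose counts without OHT were a few reads.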
